A study of Rattus norvegicus with 6 samples.

Results

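The miR-99, miR-100 and miR-125 family was followed in small RNA sequencing of rat primary sertoli cells, the somatic cells that nurse germ cells in the seminiferous tubule. The 5 members were rno-miR-99a, rno-miR-99b, rno-miR-100, rno-miR-125a and rno-miR-125b, written below without the prefix for rat. They were chosen by name: a counted mature miRNA belonged if its name, with the arm (5p or 3p, the side of the hairpin it is cut from) removed, equalled that of a member. This gave 11 arms of the 734 mature miRNAs in the table, 5 of them 5p arms and 6 of them 3p arms, and the rule used their names and no measured value. The cells came from testes of Sprague-Dawley rats 5 to 10 days old and were treated in culture at passage 2. The 3 control samples received no 4-NP (4-nonylphenol, an alkylphenol with estrogen-like action), and the 3 samples of the 4-NP group received 0.5 mM for 24 h. The study asked how 4-NP changes the RNAs of these cells, and the comparison made here is 4-NP against control for each arm. Neither the sample labels nor the methods say whether the 3 samples of a group came from separate cultures or animals, so the p-values measure only the spread between these samples, which may be technical.

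The family is among the oldest known in animals: lin-4 of the worm, the first microRNA described, is the relative of miR-125. A microRNA is cut from a hairpin precursor, and usually 1 arm, the guide, is loaded into an Argonaute protein and represses mRNAs that pair with its seed, while the other arm, the passenger, is mostly degraded. In vertebrates a miR-99 or miR-100 gene, a let-7 gene and a miR-125 gene lie in a row and can be made from the same primary transcript, and mTOR and IGF1R are well-known targets of miR-99 and miR-100 while LIN28 is a well-known target of miR-125.

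In the rat assembly GRCr8 there are 3 such clusters. On chromosome 11, Mir99a, Mirlet7c1 and Mir125b2 lie in the non-coding RNA gene LOC103693508. On chromosome 8, Mir100, Mirlet7a-2 and Mir125b1 overlap Mir100hgl and Lnc215. On chromosome 1, Mir99b, Mirlet7e and Mir125a lie in Spaca6. RefSeq's GRCr8 sequences were matched to 10 of the 11 arms, and positions given here belong to those sequences, since the assembly behind the counts is not given in the sources used here.

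The 5p arms are shown because the seed sets which members can share targets, and the seed (bases 2 to 8) is in capitals. miR-100-5p (chr8:50798307-50798328, plus strand) and miR-99b-5p (chr1:67350070-67350091, plus strand) have the seed ACCCGUA and are identical at 18 of 22 positions. miR-99a-5p is the arm without a matched mature sequence and is not shown, but the Mir99a hairpin holds the same seed. miR-125a-5p (chr1:67350689-67350712, plus strand), miR-125b-5p (chr11:29732588-29732609, plus strand, in Mir125b2, with the same sequence in Mir125b1) and, outside the family by name, miR-351-5p (chrX:137725157-137725181, minus strand) have the seed CCCUGAG. miR-10a-5p (chr10:81779730-81779752, plus strand), a relative of miR-100 from the Hox clusters, is identical to miR-100-5p at 19 positions when shifted by 1 base.
miR-100-5p: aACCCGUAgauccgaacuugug
miR-99b-5p: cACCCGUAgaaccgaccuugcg
miR-125a-5p: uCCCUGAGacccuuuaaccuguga
miR-125b-5p: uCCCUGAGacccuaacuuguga
miR-351-5p: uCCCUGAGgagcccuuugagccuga
miR-10a-5p: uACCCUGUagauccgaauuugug

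The 3p arms are shown because the calls described below fell on them. The mature 5p product of Mir125b1 and Mir125b2 is identical, so only the 3p arms tell the 2 loci apart. miR-125b-1-3p (chr8:50850090-50850111, plus strand) and miR-125b-2-3p (chr11:29732627-29732648, plus strand) are identical at 18 of 22 positions and differ in the seed, again in capitals. miR-99a-3p (chr11:29687441-29687462, plus strand) and miR-99b-3p (chr1:67350108-67350129, plus strand) are identical at 19 of 22 positions and share theirs. miR-100-3p lies at chr8:50798342-50798360 and miR-125a-3p at chr1:67350727-67350748, both on the plus strand.
miR-125b-1-3p: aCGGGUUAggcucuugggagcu
miR-125b-2-3p: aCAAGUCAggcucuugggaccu
miR-99a-3p: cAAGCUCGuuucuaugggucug
miR-99b-3p: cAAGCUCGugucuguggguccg
miR-100-3p: cAAGCUUGugucuauaggu
miR-125a-3p: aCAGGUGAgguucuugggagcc

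The authors deposited read counts, and each sample had 20023200 to 23426742 reads on mature miRNAs, of which miR-21-5p took 62.0 to 63.9%. Levels are given as CPM, counts scaled so that the mature miRNA reads of each sample add up to the same total of 1000000. As 1 read is 1 miRNA, they are not divided by length, and adapter ligation can favour some sequences over others. A level of 3 reads, taken as the limit of detection, was 0.128 to 0.150 CPM, far under every arm of the family, and since reads were not collapsed to molecules this limit covers counting error only. Replicates of a group differed by more than counting error (chi-square of 154 to 942 per degree of freedom). Of the Sertoli and gonad markers miR-202 and miR-140, all 4 counted arms had reads, with a summed level of 1382 to 1897 CPM in the controls and 1213 to 1404 CPM under 4-NP, and none of the 4 passed the test. Some markers of other cells moved with treatment. The myoid or smooth muscle pair miR-143-3p and miR-145-5p had 120518 to 136205 CPM in the controls and 88367 to 96674 CPM under 4-NP (1 of 2 lower). The endothelial miR-126a arms had 6325 to 7615 and 3234 to 3805 CPM (2 of 2 lower). Germ line markers summed to 161 to 171 and 124 to 149.5 CPM (2 of 6 tested higher, 3 lower), and the erythroid markers summed to 11.0 to 40.7 and 59.3 to 631 CPM (1 of 2 tested higher). The epithelial miR-200 and miR-141 arms summed to 10.6 to 12.9 and 6.19 to 6.91 CPM (2 of 5 lower). The liver marker miR-122-5p had 0.0427 to 0.538 and 0.271 to 21.7 CPM, with overlap between the groups and no call. Its high end was 4-NP sample 2 alone, with 434 reads. Myeloid markers (8.05 to 10.5 and 8.36 to 14.1 CPM) and striated muscle markers (14.0 to 19.5 and 13.2 to 14.8 CPM) had no call. None of the counted markers was at 0 in all samples. The part of other cells in the results below was not tested, and in bulk RNA fewer cells of a type and less RNA per cell cannot be told apart.

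No guide of the family passed the test, and 3 of its less abundant 3p arms fell. This does not set the 5p arms apart from the 3p arms. The guide miR-125b-5p had a log2 fold change of -0.79, and no 5p over 3p ratio of the family passed a test. Together the 11 arms held 1.69, 2.15 and 1.72% of mature miRNA reads in controls 1, 2 and 3, and 1.88, 2.03 and 1.73% in 4-NP samples 1, 2 and 3, so the groups overlapped. The 5p arms made up 98.9% of the family's reads in each control and 99.2 to 99.4% under 4-NP. The groups did not overlap in this share, which was not tested. Of the ratios of all pairs of tested miRNAs, 42.3% had no overlap between the groups. All 11 arms passed the filter on low counts that left 549 of 734 mature miRNAs for the test. By edgeR's quasi-likelihood test, with Benjamini-Hochberg adjustment over the 549, 0 of 11 arms rose and 3 of 11 fell at an adjusted p under 0.05, where 7.47% of all tested miRNAs rose and 12.8% fell. The 3 arms were miR-125b-1-3p, miR-99b-3p and miR-125a-3p. At the study's thresholds, a fold change over 2 or under 0.5 with an unadjusted p under 0.05, 0 arms rose (5.83% of all tested) and 1 fell, miR-125b-1-3p (9.84% of all tested). Without 4-NP sample 2, miR-125b-1-3p missed the fold limit (log2 fold change -0.98) and miR-125b-5p passed it (-1.18). The median log2 fold change was -0.15 over the 11 arms, -0.14 over the 5 5p arms, -0.45 over the 6 3p arms and -0.015 over all 549.

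**Figure D1:**
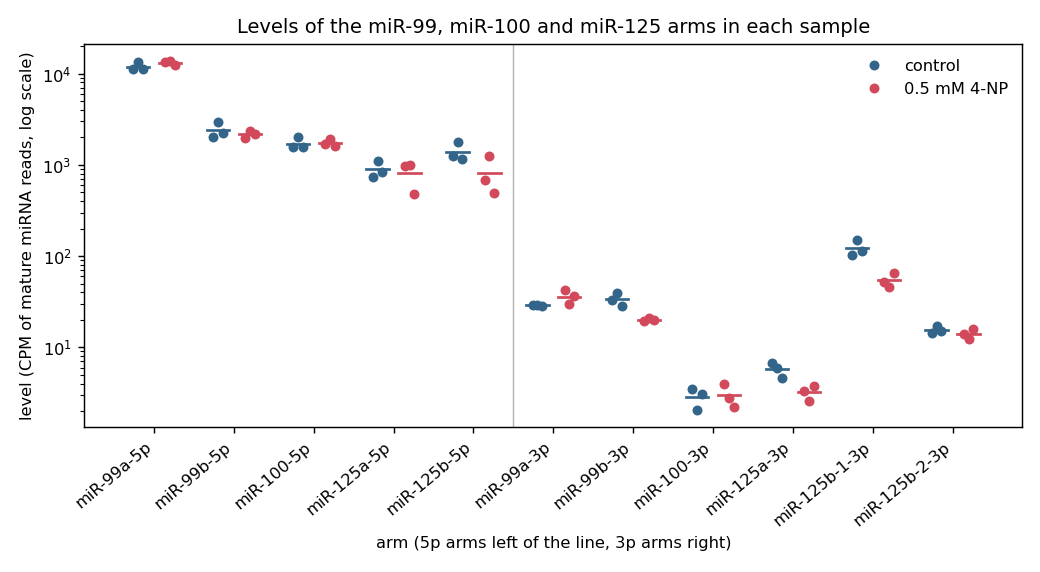
Level of each of the 11 arms in each sample, in CPM of mature miRNA reads on a log scale, with control samples in blue, 4-NP samples in red and a line at each group's mean. The 5p arms lie between 480.2 and 13600.2 CPM and the 3p arms between 2.08 and 148 CPM, and the 4-NP points lie under all control points for miR-99b-3p, miR-125a-3p and miR-125b-1-3p.

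miR-99a-5p was the most abundant arm of the family and ranked 6 among all mature miRNAs by its mean level in the controls. It had 11184, 13377 and 11259 CPM in controls 1, 2 and 3, and 13314, 13600.2 and 12435 CPM in 4-NP samples 1, 2 and 3. Control 2 lay within the range of the treated samples, so the groups overlapped. The means were 11940.1 ± 1245 and 13116 ± 607 CPM (n = 3 per group, SD), a log2 fold change of 0.12 (standard error, SE, 0.068) with an adjusted p of 0.251 from edgeR. Its seed relatives were lower by a wide margin: miR-99b-5p had 2397 ± 505 CPM in the controls (rank 25), and miR-100-5p had 1705 ± 258 CPM (rank 34; SD, n = 3 each). Neither moved past the test, with log2 fold changes of -0.14 (SE 0.14, adjusted p = 0.513) and 0.013 (SE 0.11, adjusted p = 0.954) from edgeR. Over the control samples the 5p arms stood in the order miR-99a-5p, miR-99b-5p (2009 to 2968 CPM), miR-100-5p (1553 to 2003 CPM), miR-125b-5p (1150.0 to 1767 CPM) and miR-125a-5p (731 to 1109 CPM). Of these neighbours miR-100-5p and miR-125b-5p overlapped in their ranges, and the others were separated, in the case of miR-99b-5p and miR-100-5p by a few CPM.

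Within the miR-99 and miR-100 seed family miR-99a-5p held 74.5% ± 1.49 of the 5p reads in the controls and 77.0% ± 1.15 under 4-NP (n = 3 per group, SD). The shares of miR-99b-5p were 14.8% ± 1.28 and 12.8% ± 0.974, and those of miR-100-5p 10.6% ± 0.293 and 10.2% ± 0.489. Summed, the 3 guides had 16042 ± 2002 CPM in the controls and 17036 ± 832 CPM under 4-NP (n = 3 per group, SD), a log2 fold change of 0.062 (SE 0.075, edgeR adjusted p = 0.598). miR-100-5p matches the Mir99a hairpin at 21 of 22 bases, so miR-99a-5p and miR-100-5p can trade reads in counting. The sum of this pair had a log2 fold change of 0.11 (SE 0.070, edgeR adjusted p = 0.294). The rule by which the authors split such reads is not given in the sources used here, so the sums are less touched by it.

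The guides of the miR-125 seed were lower and more variable. miR-125a-5p, cut from the cluster of miR-99b, had 731, 1109 and 837 CPM in the controls and 973, 998 and 480.2 CPM under 4-NP. The 4-NP sample 3 alone lay under all controls, and the log2 fold change was -0.15 (SE 0.27, edgeR adjusted p = 0.739). miR-125b-5p, the product of both Mir125b loci, had 1260.0, 1767 and 1150.0 CPM in the controls and 688, 1261 and 487 CPM under 4-NP. Treated samples 1 and 3 lay under every control while treated sample 2 lay among them. The fitted log2 fold change of miR-125b-5p was -0.79 (SE 0.33, edgeR adjusted p = 0.143), and of 16 alternatives only the omission of 4-NP sample 2 took it past the threshold (-1.18, edgeR adjusted p = 0.0237).

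The miR-125b-5p count has a counterpart on the other strand. miR-3588, annotated on the minus strand at the position of the miR-125b-5p arm of Mir125b2 (chr11:29732588-29732609), is its exact reverse complement over all 22 bases, and it is shown here because the counts of the 2 must be read together.
miR-3588: uCACAAGUuagggucucaggga

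miR-3588 was counted more often than miR-125b-5p in every sample, with 4315, 6375 and 5887 CPM in the controls and 7185, 5181 and 5145 CPM under 4-NP. The groups overlapped (log2 fold change 0.060, SE 0.17, edgeR adjusted p = 0.825). Of the reads on both names, miR-125b-5p took 22.6, 21.7 and 16.3% in the controls and 8.74, 19.6 and 8.65% under 4-NP. This share falls with the miR-125b-5p count itself. In 4-NP sample 1 miR-3588 lay above all controls, while in 4-NP samples 2 and 3 it lay within their range. The sum of both was 5575, 8142 and 7037 CPM in the controls and 7873, 6442 and 5632 CPM under 4-NP, and the groups overlapped throughout. Its log2 fold change was -0.069 (SE 0.14, edgeR adjusted p = 0.759). The coefficient of variation under 4-NP was 49.5% for miR-125b-5p alone and 17.1% for the sum, and in the controls 23.6% and 18.6%. miR-3588 alone, which made up most of the sum, had 20.0% under 4-NP and 19.5% in the controls. Whether the 2 names traded reads was not tested. Whether the counting used the strand of the reads is not given in the sources used here, so reads of the 2 names cannot be told apart, and the level and fold change of miR-125b-5p alone are uncertain. The sum was chosen after the values were seen.

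**Figure D2:**
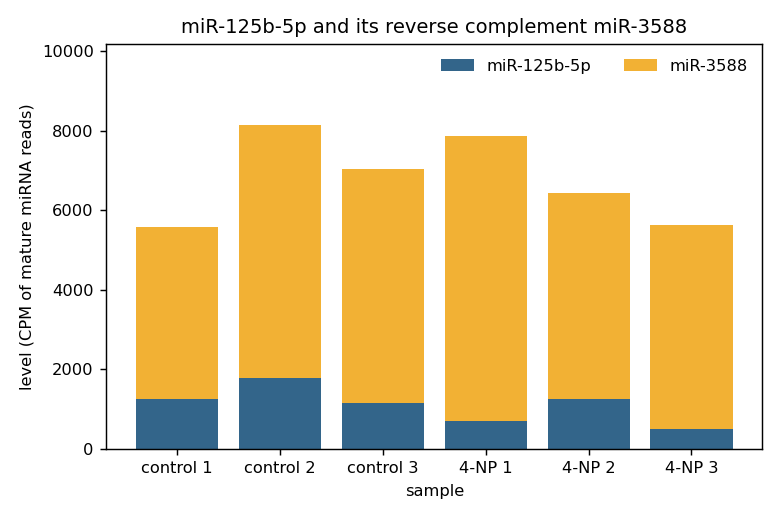
Level of miR-125b-5p (blue) stacked on a linear axis with that of its reverse complement miR-3588 (orange), in CPM of mature miRNA reads, for each of the 6 samples. The blue part stands at 688 and 487 CPM in 4-NP samples 1 and 3, while the whole bars, 5575 to 8142 CPM in the controls and 5632 to 7873 CPM under 4-NP, overlap between the groups.

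Summing the guides with the miR-125 seed did not bring them past the test. miR-125a-5p and miR-125b-5p together had 2285 ± 512 CPM in the controls and 1629 ± 646 CPM under 4-NP (n = 3 per group, SD), a log2 fold change of -0.50 (SE 0.28, edgeR adjusted p = 0.249). With miR-3588 added, the log2 fold change was -0.077 (SE 0.14, adjusted p = 0.746).

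The 3 arms that fell were all 3p arms. miR-125b-1-3p, the passenger arm of Mir125b1 on chromosome 8 and the most abundant 3p arm of the family, had 103, 148 and 115 CPM in the controls and 52.1, 45.9 and 64.4 CPM under 4-NP. Every treated sample lay under every control, as was the case for 22.6% of all tested miRNAs. The means were 121.9 ± 23.4 and 54.1 ± 9.40 CPM (n = 3 per group, SD), a 0.444-fold level, and the log2 fold change was -1.17 (SE 0.20, edgeR adjusted p = 0.00777). It rested on 2410 to 3419 reads per control and 920 to 1410 per treated sample.

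miR-99b-3p, the passenger arm of Mir99b, had 32.7, 39.1 and 28.4 CPM in the controls and 19.4, 21.1 and 19.7 CPM under 4-NP. The treated samples lay close together and all under the controls. The means were 33.4 ± 5.40 and 20.1 ± 0.886 CPM (n = 3 per group, SD), with a log2 fold change of -0.75 (SE 0.13, edgeR adjusted p = 0.00777). It thus fell to 0.596 of its control level and stayed above the study's limit of 0.5.

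miR-125a-3p, the passenger arm of Mir125a in the same cluster, was scarce, with 102 to 156 reads per control and 52 to 83 per treated sample. Its levels were 6.66, 5.93 and 4.58 CPM in the controls and 3.30, 2.60 and 3.79 CPM under 4-NP, again without overlap between the groups. The log2 fold change was -0.84 (SE 0.23, edgeR adjusted p = 0.0473), just inside the threshold. This call was lost with DESeq2 (adjusted p = 0.059), without the filter on low counts (0.0587 in edgeR), with a replicate block (0.0991) and when control 1, control 2, 4-NP sample 1 or 4-NP sample 2 was left out (0.141, 0.102, 0.115 and 0.133 in edgeR). The other calls, of miR-125b-1-3p and miR-99b-3p, held in all 16 alternatives tried.

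The remaining 3p arms did not pass the test. miR-99a-3p, from the chromosome 11 cluster, had 29.2, 29.0 and 28.0 CPM in the controls and 42.1, 29.8 and 36.1 CPM under 4-NP. It was the only arm of the family whose treated samples all lay above the controls, by a small gap between 4-NP sample 2 and control 1, where 19.9% of all tested miRNAs were separated in this direction. Its log2 fold change was 0.30 (SE 0.15, edgeR adjusted p = 0.208). miR-125b-2-3p, from the same cluster, had 15.5 ± 1.35 CPM in the controls and 14.0 ± 1.72 CPM under 4-NP (n = 3 per group, SD; log2 fold change -0.15, SE 0.15, edgeR adjusted p = 0.510). miR-100-3p, the scarcest arm, had 48 to 81 reads per control and 49 to 88 per treated sample (log2 fold change 0.023, SE 0.31, edgeR adjusted p = 0.975).

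**Figure D3:**
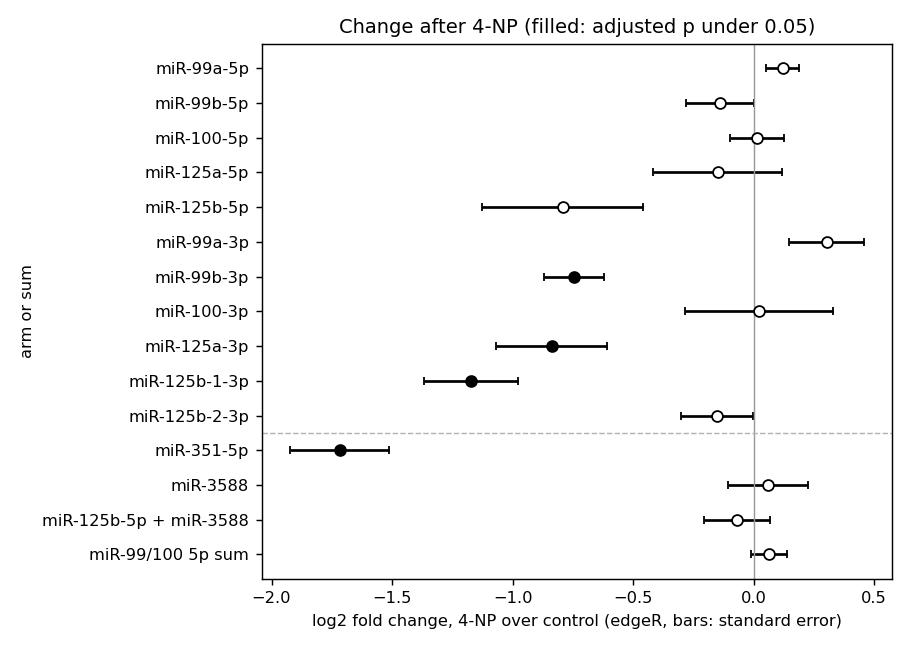
Log2 fold change of each arm, 4-NP over control, from edgeR's quasi-likelihood test, with bars of 1 standard error and filled points where the adjusted p is under 0.05. Above the dashed line are the 11 arms of the family and below it miR-351-5p, miR-3588 and the sums. The 3 filled points of the family lie at -0.75, -0.84 and -1.17, and miR-351-5p lies at -1.72.

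The 2 miR-125b loci, whose guides cannot be told apart, were compared through their 3p arms. The ratio of miR-125b-1-3p to miR-125b-2-3p reads within a sample was 7.16, 8.71 and 7.58 in the controls and 3.76, 3.69 and 4.06 under 4-NP. The groups did not overlap, and the replicates of each lay close together. The mean log2 ratio was 1.02 lower under 4-NP (SE 0.094). The exact two-sided permutation test gave p = 0.1, the smallest that 3 against 3 samples allow, and 0.22 after adjustment over the 11 ratios compared. Expressed as a share of the reads on both 3p arms, miR-125b-1-3p went from 88.6% ± 1.00 in the controls to 79.3% ± 0.820 under 4-NP (n = 3 per group, SD). The ratio does not show which of the arms changed, and of these only miR-125b-1-3p passed the edgeR test on its own.

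Of the 11 ratios of paralogs and cluster neighbours compared, 5 had no overlap between the groups, each with an exact permutation p of 0.1. The share was near that over the 150426 ratios of all pairs of tested miRNAs, 42.3% of which had no overlap, so the count says nothing particular to the family. The 5 ratios are not independent, since miR-125b-1-3p and miR-125b-2-3p each enter 2 of them. miR-99a-3p over miR-125b-2-3p, both from the chromosome 11 cluster, was 2.04, 1.71 and 1.85 in the controls and 3.04, 2.39 and 2.27 under 4-NP (mean log2 difference 0.46, SE 0.15). miR-100-3p over miR-125b-1-3p, both from the chromosome 8 cluster, was higher by 1.23 on the log2 scale under 4-NP (SE 0.50), and its numerator was scarce.

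miR-99a-5p over miR-99b-5p was 5.57, 4.51 and 5.09 in the controls and 6.69, 5.76 and 5.67 under 4-NP (mean log2 difference 0.26, SE 0.12). miR-125a-5p over miR-125b-5p was 0.580, 0.628 and 0.728 in the controls and 1.42, 0.791 and 0.986 under 4-NP (mean log2 difference 0.69, SE 0.26). With miR-3588 added to miR-125b-5p, that last difference was -0.13, the groups overlapped and the exact permutation p was 0.8. In the other 6 ratios the groups overlapped, among them miR-99a-5p over miR-100-5p (6.68 to 7.25 in the controls and 7.09 to 7.83 under 4-NP) and miR-99b-5p over miR-125a-5p (2.65 to 2.75 and 2.05 to 4.57).

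**Figure D4:**
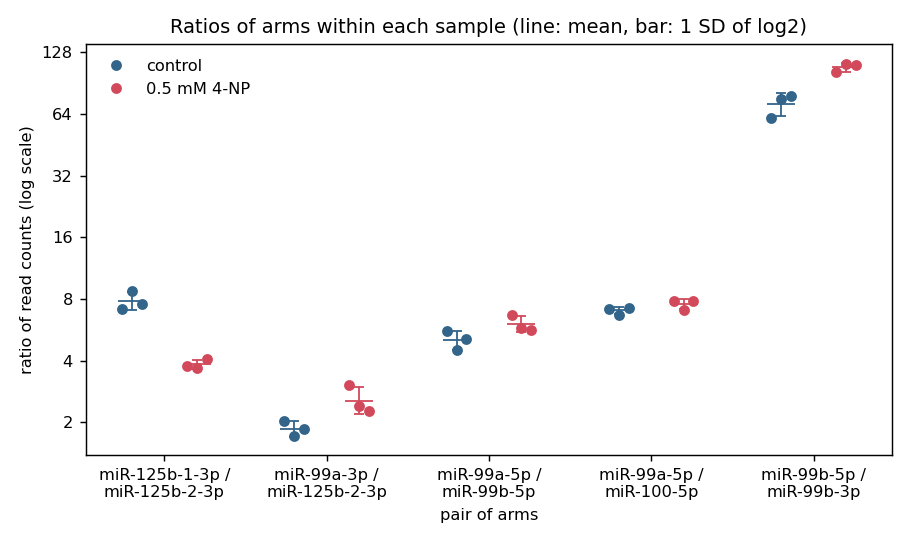
Ratio of the reads of 2 arms within each sample on a log scale, with control samples in blue, 4-NP samples in red, a line at the mean and a bar of 1 SD of the log2 ratio. The miR-125b-1-3p to miR-125b-2-3p ratio lies at 7.16 to 8.71 in the controls and 3.69 to 4.06 under 4-NP, and the miR-99b 5p to 3p ratio at 61.3 to 78.0 and 102 to 112.

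The balance of the arms of 1 hairpin was compared next, since it does not depend on the scaling of the libraries. The 5p over 3p ratio of miR-99b was 61.3, 75.9 and 78.0 in the controls and 102, 112 and 111 under 4-NP. All treated samples lay above all controls. Of the ratios of all pairs of tested miRNAs, 42.3% had no overlap between the groups, in one direction or the other. The log2 difference for miR-99b was 0.60 (SE 0.18), with an adjusted p of 0.167 from limma over the 173 arm pairs of the table. None of the 6 pairs of the family passed that test in either direction, where 2.31% of all pairs shifted to the 5p arm and 2.89% to the 3p arm. The log2 difference was 0.64 for miR-125a (adjusted p = 0.468), -0.17 for miR-99a (0.739) and -0.029 for miR-100 (0.962), all from limma. For miR-125b-5p it was 0.30 against miR-125b-1-3p (0.823) and -0.72 against miR-125b-2-3p (0.382), and both carry the uncertainty of the miR-125b-5p count. With all antisense miRNAs of the table summed, among them miR-3588 with miR-125b-5p, they came to 1.11 (0.058) and 0.0903 (0.862). The median over all pairs was 0.058.

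Among miRNAs outside the family by name, miR-351-5p was the only other miRNA with the seed of a matched arm of the family, over the 606 counted names that had a sequence. It comes from the X chromosome and shares the miR-125 seed CCCUGAG. It had 319, 509 and 328 CPM in the controls and 135, 129 and 90.0 CPM under 4-NP, with every treated sample under every control. The log2 fold change was -1.72 (SE 0.20, edgeR adjusted p = 0.00189). Of the reads on the 3 miRNAs with this seed as counted, miR-351-5p held 14.3% ± 0.635 in the controls and 7.14% ± 1.58 under 4-NP (n = 3 per group, SD).

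The let-7 arms of the 3 clusters, inhibitors of growth and of LIN28 in many tissues, were followed as neighbours. None of the 6 passed the test, and their median log2 fold change was -0.39. let-7c-5p, the neighbour of miR-99a, had 3658 ± 314 CPM in the controls and 3786 ± 72.2 CPM under 4-NP (n = 3 per group, SD; log2 fold change 0.027, edgeR adjusted p = 0.903). let-7e-5p, the neighbour of miR-99b and miR-125a, had a log2 fold change of 0.10 (edgeR adjusted p = 0.640). It too has an antisense counterpart, miR-3596c, which had 563 ± 32.1 and 848 ± 177 CPM (edgeR adjusted p = 0.106). The sum of let-7e-5p and miR-3596c had a log2 fold change of 0.35 (SE 0.15, edgeR adjusted p = 0.158), further from 0 than let-7e-5p alone. The 3p arms let-7a-2-3p, let-7c-1-3p and let-7e-3p had log2 fold changes of -0.47, -0.64 and -0.31 (edgeR adjusted p = 0.0528, 0.165 and 0.173). The first of these passed the threshold in 3 of 16 alternatives, and let-7c-1-3p did so when 4-NP sample 2 was left out (-0.90, edgeR adjusted p = 0.041).

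let-7a-5p, which several loci make, varied widely within the treated group, with 75439, 53392 and 53251 reads in the controls and 1929, 4113 and 65192 under 4-NP. Its antisense counterpart miR-3596a, annotated at Mirlet7a-2 next to Mir100, had 2795, 6106 and 2102 reads over the control samples, against 63048, 52410 and 986 in the treated ones. The samples low in the one were high in the other. The sum had a log2 fold change of 0.090 (SE 0.16, edgeR adjusted p = 0.721), against -1.24 (SE 1.22, edgeR adjusted p = 0.509) for let-7a-5p alone, or -4.21 (edgeR adjusted p = 0.00479) without 4-NP sample 3.

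The miR-10 arms, relatives of miR-99 and miR-100 from the Hox clusters, also had no call among the 4 tested (median log2 fold change 0.11). miR-10a-5p stood near miR-100-5p in level, with 1619.5 ± 286 CPM in the controls and 1602 ± 158 CPM under 4-NP (n = 3 per group, SD; log2 fold change -0.027, edgeR adjusted p = 0.895). miR-10b-5p had 62.0 ± 9.47 and 73.2 ± 3.23 CPM (log2 fold change 0.23, edgeR adjusted p = 0.256).

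The table also holds reads on precursor families, of which 2 belong here by name. The row of the mir-10 precursor family, which in family databases takes in the miR-99 and miR-100 precursors, had 15385 to 20700 reads per control and 16999 to 19361 per treated sample (log2 fold change 0.15, SE 0.15, adjusted p = 0.483 in edgeR over 738 rows). The row of the lin-4 precursor, the family of miR-125, had 3145 to 4990 and 3132 to 4589 reads (log2 fold change -0.12, SE 0.22, edgeR adjusted p = 0.707). Neither passed the test, and with scaling factors from the rows that are not mature miRNAs the mir-10 value was -0.23 (adjusted p = 0.511) and the lin-4 value -0.51 (adjusted p = 0.155).

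The miRNAs most like the family in pattern were sought among 339 miRNAs that averaged 100 reads or more, by the root mean square difference of centred log2 CPM over the 6 samples. Closest to the miR-99 and miR-100 5p sum were miR-872-3p (0.0578), miR-499-5p (0.0704) and miR-181a-5p (0.0707). Closest to the miR-125 5p sum were miR-191a-3p (0.165), miR-1843b-5p (0.180) and miR-1193-3p (0.241). With miR-3588 added to that sum they were miR-181d-5p (0.0865), miR-455-3p (0.111) and miR-350 (0.123). These values describe 6 samples that share their depth and scaling.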

How the data were processed

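Rat primary sertoli cells were profiled by small RNA sequencing (18 to 30 nt, gel-excised, adapters with molecular identifiers). Per the labels, the authors used HISAT2 and DESeq2, the study's methods name edgeR, and the genome build, miRNA database and strand setting are not given in the sources used here. The authors deposited unnormalized read counts per small RNA in 1 table. It also has a column per sample named for the identifiers, which is 1 for every known mature miRNA with reads and was not used. The 4 rows of totals (3.52 to 5.91% of reads) were left out.

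Counts were tested in R 4.3.3 with edgeR 4.0.16 (two-sided quasi-likelihood F test, filterByExpr, then TMM with factors of 0.947 to 1.09, no block, common dispersion 0.118). Arm ratios (pseudocount 0.5) were tested with limma 3.58.1 and ratios of paralogs by exact permutation. Alternatives were DESeq2 1.42.0, other scalings and filters, limma on log2(CPM + 1), known miRNAs only, a replicate block, each sample left out and antisense miRNAs summed. The script was run on simulated data with a lower dispersion than these data, which checks the code and not its power here. All arms of the members, the cluster let-7, seed and miR-10 relatives, and the 3 miRNAs nearest in pattern to each sum were named, and the members and lists were chosen with earlier results of these data known. Between samples of equal replicate number, departures from the group mean had correlations of -0.30 to -0.02. Whether the numbers pair the samples is not given in the sources used here.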

Additional observations from a re-analysis of the deposited data

How the results depend on the processing

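Across 16 alternatives 0 arms of the family were called higher and 2 to 3 lower, and 1 passed the study's thresholds in each. That arm was miR-125b-1-3p except without 4-NP sample 2, where it was at -0.98 and miR-125b-5p passed (-1.18). There the 3 lower arms were these and miR-99b-3p. No arm pair was called in 10 alternatives, and 4 to 7 of the 11 ratios had no overlap. Only miR-125a-3p lost its call (values in the report). The replicate block gave 2 lower arms (miR-125a-3p at -0.84, adjusted p = 0.0991 in edgeR) and 26 higher and 56 lower of all tested miRNAs, against 41 and 70 without it. It is not known whether the numbers pair the samples. With at least 10 counts in every sample, uncalled log2 fold changes turned to -0.0069 for miR-100-3p, -0.029 for miR-100-5p and -0.0105 for let-7c-5p. With antisense miRNAs summed, chosen after seeing the data, let-7a-5p came to 0.11 and the ratio of miR-125b-5p to miR-125b-2-3p to 0.0903, and that to miR-125b-1-3p from 0.30 to 1.11 (adjusted p = 0.058 in limma). With scaling of their own rows the mir-10 precursor came to -0.23 and the lin-4 precursor to -0.51.

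With each sample left out in turn, uncalled log2 fold changes crossed 0 for miR-100-3p (-0.21 to 0.21), miR-100-5p (-0.042 to 0.070), miR-125a-5p (-0.26 to 0.11), miR-125b-2-3p (-0.28 to 0.016), let-7c-5p (-0.064 to 0.13), miR-3588 (-0.071 to 0.22), its sum with miR-125b-5p (-0.17 to 0.018) and with both miR-125 guides (-0.19 to 0.031), and for the arm ratios of miR-100 (-0.24 to 0.31) and of miR-125b-5p to miR-125b-1-3p (-0.18 to 0.75). Without 4-NP sample 3, let-7a-5p came to -4.21 (adjusted p = 0.00479 in edgeR). The cause of these moves was not tested. The scarcest arms, miR-100-3p and miR-125a-3p, rest on 48 to 88 and 52 to 156 reads per sample.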
